A study of Mus musculus with 2 samples.

Results

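Alpha cells low in the hormones of the pancreatic polypeptide family are islet cells whose largest hormone transcript is *Gcg*, the gene of glucagon, and which hold little *Ppy* (pancreatic polypeptide) and *Pyy* (peptide YY) mRNA. They were 1209 of the 8897 cells that passed the quality filter, 702 from wild-type (WT) and 507 from *Npc1*-/- islets. Each was a cell in which *Gcg* exceeded *Ins1* plus *Ins2*, *Sst*, and *Ppy* plus *Pyy*, *Gcg* made up at least 10% of the unique molecular identifiers (UMIs, counts of captured mRNA molecules), *Ppy* plus *Pyy* made up less than 3%, and the cell cycle genes *Mki67* and *Top2a* together gave fewer than 3 UMIs. The cells were therefore chosen by their own readout, and the levels of these genes are given only as a description.

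Islets came from female mice aged 2 weeks, bred by mating *Npc1*+/- parents on a C57BL/6J background, and the 2 groups were littermates that carried either no mutant *Npc1* allele or a loss of *Npc1* in every tissue. *Npc1* encodes the lysosomal membrane protein that moves cholesterol out of lysosomes. Islets of 3 mice of 1 genotype were pooled, dispersed with trypsin and sequenced as a single 10x Genomics 3′ library per genotype. With 1 library on each side no difference between the genotypes has a replicate check, the genotype cannot be told apart from the library, and all intervals below are exact 95% intervals that cover counting error only.

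Alpha cells secrete glucagon when blood glucose falls, and glucagon drives the liver to release glucose. They also answer amino acids, which the liver uses under glucagon and which in turn stimulate alpha cells. In the mouse islet the genes *Ppy* and *Pyy* are shared more widely by young endocrine cells than by adult ones, and *Irx1* and *Irx2* are transcription factors used to recognise alpha cells.

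Of 8569 WT and 7646 *Npc1*-/- barcodes, 4628 and 4269 were kept, and 1067 and 869 of these had *Gcg* as the largest hormone. The step on *Ppy* plus *Pyy* removed 273 WT and 283 *Npc1*-/- cells, and the step on cycling genes removed a further 73 and 67. The cells chosen were 15.2% (14.1 to 16.2) of kept WT cells and 11.9% (10.9 to 12.9) of kept *Npc1*-/- cells. The *Npc1*-/- share was 0.783 times the WT share (0.697 to 0.879). Among *Gcg*-led cells that were not cycling, 73.7% (70.8 to 76.5) of WT and 65.3% (61.9 to 68.7) of *Npc1*-/- cells were low in *Ppy* plus *Pyy*. The intervals of the genotypes did not overlap in either share, but a second pool of mice would be needed to set the spread between pools beside them.

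The 3% limit fell inside a continuous range of cells. Just inside it, 45 WT and 44 *Npc1*-/- cells held 2.5% to 3% *Ppy* plus *Pyy*, and just outside it 36 and 28 held 3% to 3.5%. Few cells lay near the other limits, with 9 WT and 3 *Npc1*-/- cells at 10% to 12% *Gcg*, and 18 and 14 cells with 2 UMIs of *Mki67* plus *Top2a*. The libraries shared 12 barcodes, 0.0741% of all, and no chosen cell was among the chosen cells of both.

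The 2 sets of cells were of similar depth, with a median of 16557.5 UMIs and 3583 genes per WT cell and 17633 UMIs and 3785 genes per *Npc1*-/- cell. Summed, they held 11670804 and 9114219 UMIs, out of 114324626 and 127122035 in the whole libraries. Mitochondrial transcripts took a median of 4.19% and 4.31%. A doublet score marked 13 WT cells (1.85%) and 14 *Npc1*-/- cells (2.76%), which were kept.

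*Gcg* itself took a median of 31.5% of a WT cell's UMIs, from 10.5% to 50.4%, and 30.9% of an *Npc1*-/- cell's, from 10.7% to 52.1%. *Ppy* plus *Pyy* took a median of 0.763% and 0.966%. The promoter of *Gcg* is shown because this gene defines the cells. It is on chromosome 2, chr2:62483654-62483773 on the minus strand of the mouse build GRCm38.p6, and the 120 bases end at the RefSeq start of the gene, with TATAAA and its reverse complement in capitals.
Gcg promoter: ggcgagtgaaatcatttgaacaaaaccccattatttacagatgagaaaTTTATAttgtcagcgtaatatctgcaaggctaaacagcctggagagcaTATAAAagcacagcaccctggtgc
TATAAA on either strand occurred in 13.6% of the 32851 RefSeq promoters of 300 bases.

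Genes that the choice did not use also marked these cells as alpha cells. Levels are given as CPM, the UMIs of a gene per 1000000 UMIs of the summed cells, and are compared only for 1 gene at a time. *Ttr*, the thyroid hormone and retinol transporter transthyretin that alpha cells make in quantity, reached 27273 CPM (27178 to 27368) in WT and 24335 CPM (24234 to 24437) in *Npc1*-/- cells, against 841 and 775 CPM in insulin-led cells. *Irx1* stood at 168 CPM (161 to 176) and 157.7 CPM (149.6 to 166), against 2.00 and 1.38 CPM in insulin-led cells. *Irx2* stood at 160.4 and 150.8 CPM, against 2.21 and 2.97 CPM. All of these levels lay far above those of insulin-led cells in the same library, and at least 1 UMI of *Irx1* was present in 86.6% of WT and 85.0% of *Npc1*-/- cells.

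*Ins2* was listed at 8023 CPM in WT cells and 5184 CPM in *Npc1*-/- alpha cells. Endothelial cells, which do not make insulin, held 12036 and 6580 CPM at median depths of 7840 and 10285 UMIs per cell. Reads of *Ins1* and *Ins2*, which are close in sequence, were therefore not read as insulin expression by alpha cells.

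**Figure D1:**
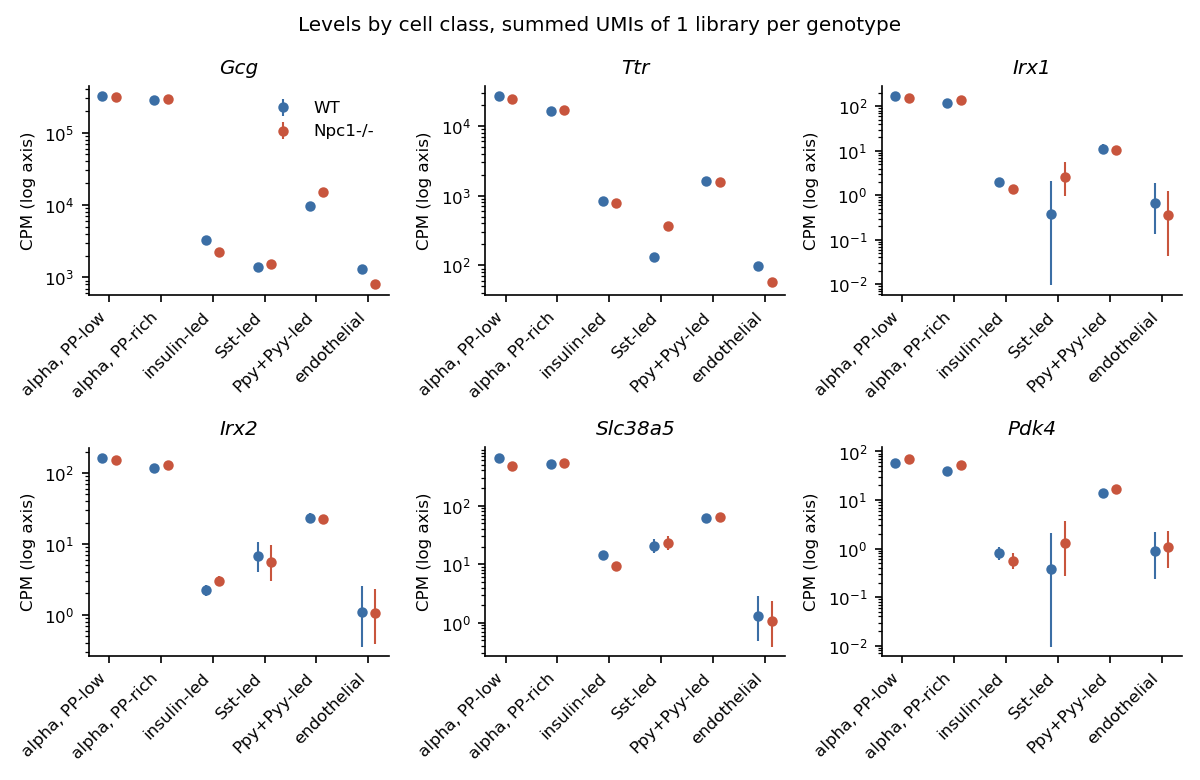
Levels of *Gcg*, *Ttr*, *Irx1*, *Irx2*, *Slc38a5* and *Pdk4* in 6 classes of cells, as CPM of summed UMIs on a log axis. Dots are the WT (blue) and *Npc1*-/- (red) libraries and bars are 95% Poisson intervals. *Irx1* and *Irx2* were above 150 CPM in alpha cells low in *Ppy* and *Pyy* of both libraries and under 3 CPM in insulin-led cells.

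Between the genotypes, the alpha cell identity genes differed little. All levels of difference below are log2 ratios of *Npc1*-/- over WT, less the ratio of the median gene (0.0566 on the log2 scale), and a gene is counted as higher or lower where it passed 1.5-fold among the 5257 genes that reached 20 CPM in WT or in *Npc1*-/- cells. Of these genes 26 (0.495%) were higher and 49 (0.932%) were lower. Without centring the counts were 33 and 42, and with hormone genes also left out of the totals 61 and 69. None of 16 listed alpha identity genes passed 1.5-fold, 4 lay above and 12 below the median gene, and their median was -0.15. The vitamin D binding protein *Gc* (134 and 106 CPM, -0.39), the transcription factor *Etv1* (388 and 314 CPM, -0.36) and the glucagon-processing protease *Pcsk2* (3196 and 2738 CPM, -0.28) lay lowest among those described.

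Genes that cells induce within minutes of a stimulus, and heat shock chaperones, were lower as a group in *Npc1*-/- alpha cells. All 22 of these listed genes were below the median gene in *Npc1*-/- alpha cells, 19 of them past 1.5-fold, and the median log2 ratio was -0.92, while over all 5257 genes 2628 lay below and the median was 0 by construction. All 22 were also below 0 under each of 3 other scalings. With a filter on the mean CPM of both libraries, which no single library decides, 21 genes remained, all below, 17 of them past 1.5-fold. Their summed level was 5576 CPM in WT and 3474 CPM in *Npc1*-/- cells.

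Among the immediate early genes, *Fos*, a subunit of the AP-1 transcription factor, was at 532 CPM in WT cells and 242 CPM in *Npc1*-/- cells (-1.19, interval -1.26 to -1.12). *Fosb*, of the same family, was at 139 and 55.3 CPM (-1.38). *Dusp1*, a phosphatase that switches off MAP kinases, was at 101 and 36.9 CPM (-1.50). The stress factor *Atf3* had 346 WT UMIs and 12 *Npc1*-/- UMIs (-4.49, interval -5.52 to -3.73). *Ier2* (149 and 79.0 CPM, -0.97), *Klf4* (67.3 and 38.2 CPM, -0.87) and *Zfp36*, which destabilises mRNAs (40.1 and 20.7 CPM, -1.01), were lower too.

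Among the chaperones, *Dnajb1*, a cochaperone of HSP70, was at 155 CPM in WT cells and 40.6 CPM in *Npc1*-/- cells (-1.99, interval -2.15 to -1.82). *Hspa1a*, an inducible HSP70, was at 266 and 78.8 CPM (-1.81). *Hspa1b* was at 61.9 and 25.7 CPM (-1.32), but its transcript is nearly identical to that of *Hspa1a* and reads may have been split between them. *Hspb1* (57.0 and 19.2 CPM, -1.62) and *Hsph1* (52.9 and 27.4 CPM, -1.002) showed the same direction.

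The same list had a median of -1.47 in insulin-led cells, -0.99 in *Gcg*-led cells rich in *Ppy* and *Pyy*, and -0.33 in endothelial cells of these libraries, so it was not particular to alpha cells. Genes of this list are also known to be induced when tissue is dissociated into cells. Whether such induction differed between the 2 libraries was not tested, and with 1 library per genotype it cannot be told apart from genotype.

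The promoters of 18 of the 22 genes were found in the RefSeq table, and 6 of them held GAANNTTC (*Jun*, *Hspa1a*, *Hspa1b*, *Hspb1*, *Hsph1* and *Dnaja1*), a form of the heat shock element that reads the same on both strands and occurred in 7.86% of all promoters and for 9.04% of all genes. The other form, TTCNNGAA, was held by *Hsph1* alone, against 8.52% of promoters and 9.60% of genes, so either form was held by 6 of the 18 genes (33.3%), against 17.0% of all genes. *Dusp1* and *Btg2* held TGACGTCA, the cyclic AMP response element, also its own reverse complement, which occurred in 1.79% of promoters and for 2.03% of genes. Stretches of 120 bases from *Hspb1* (plus strand, chr5:135887769-135887888) and *Dusp1* (minus strand, chr17:26508533-26508652) are printed 5′ to 3′ from GRCm38.p6 to show these matches, in capitals. The *Hspb1* stretch ends 30 bases and the *Dusp1* stretch 60 bases before the start of the gene.
Hspb1 promoter: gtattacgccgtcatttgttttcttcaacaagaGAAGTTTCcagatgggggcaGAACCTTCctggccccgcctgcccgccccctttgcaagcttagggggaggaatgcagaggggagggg
Dusp1 promoter: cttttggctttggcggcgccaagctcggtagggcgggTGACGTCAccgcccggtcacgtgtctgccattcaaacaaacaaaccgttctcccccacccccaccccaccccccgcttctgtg
A match describes letters in the window and not a bound site.

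Genes of cholesterol synthesis and uptake lay mostly in the other direction. Cells raise these genes through the transcription factor SREBP2 when the endoplasmic reticulum is short of cholesterol. Of 12 listed genes that reached 20 CPM, 10 were above and 2 below the median gene, 2 were past 1.5-fold, and the median log2 ratio was 0.47, with a range of 0.39 to 0.59 over the alternatives. Of these genes, 4 reached 20 CPM in *Npc1*-/- cells only, so the filter itself favoured the higher side. With a filter on the mean CPM of both libraries 9 genes remained, 7 above and 2 below, 1 of them past 1.5-fold, and the median was again 0.47, beside 19 higher and 40 lower of all 5048 genes. The 2 past 1.5-fold in the wider list, both under 20 CPM in WT, were *Msmo1*, a sterol C4-demethylating oxidase (14.8 CPM in WT and 27.3 in *Npc1*-/- cells, 0.82), and mevalonate kinase, *Mvk* (13.02 and 20.8 CPM, 0.62).

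*Fdps*, the farnesyl diphosphate synthase, was at 42.5 and 66.1 CPM (0.58, interval 0.41 to 0.75), just under the limit. *Sqle* (25.4 and 36.9 CPM, 0.48) and *Hmgcs1* (20.9 and 30.8 CPM, 0.50) had similar ratios. *Fdps* ran from 0.47 to 0.74 over the alternatives and so passed 1.5-fold in some. The sum of the whole list was 417 CPM in WT and 568 CPM in *Npc1*-/- cells.

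Under 20 CPM, *Idi1* had 77 WT and 138 *Npc1*-/- UMIs (1.14), and *Stard4*, a cytosolic sterol carrier, had 92 and 166 (1.15). The list's median was 0.29 in insulin-led cells, 0.39 in *Gcg*-led cells rich in *Ppy* and *Pyy*, and -0.01 in endothelial cells, and whether it differed between classes was not tested. *Npc1* itself was at 8.31 CPM (97 UMIs) in WT and 6.80 CPM (62 UMIs) in alpha cells of the library labelled *Npc1*-/-. A 3′ tag outside the altered part of a gene does not check the allele.

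Promoters of 7 of the 12 genes were found, and only that of *Hmgcs1* held TCACNCCAC, a form of the sterol response element, on either strand, against 1.24% of all promoters and 1.44% of all genes. The stretch that holds it (chr13:119690171-119690290, plus strand, GRCm38.p6) ends 60 bases before the start of the gene, and the match is in capitals.
Hmgcs1 promoter: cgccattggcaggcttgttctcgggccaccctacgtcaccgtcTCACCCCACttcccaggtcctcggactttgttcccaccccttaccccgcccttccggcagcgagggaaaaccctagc
The share of the list that held the motif cannot be read beyond these 7 genes.

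**Figure D2:**
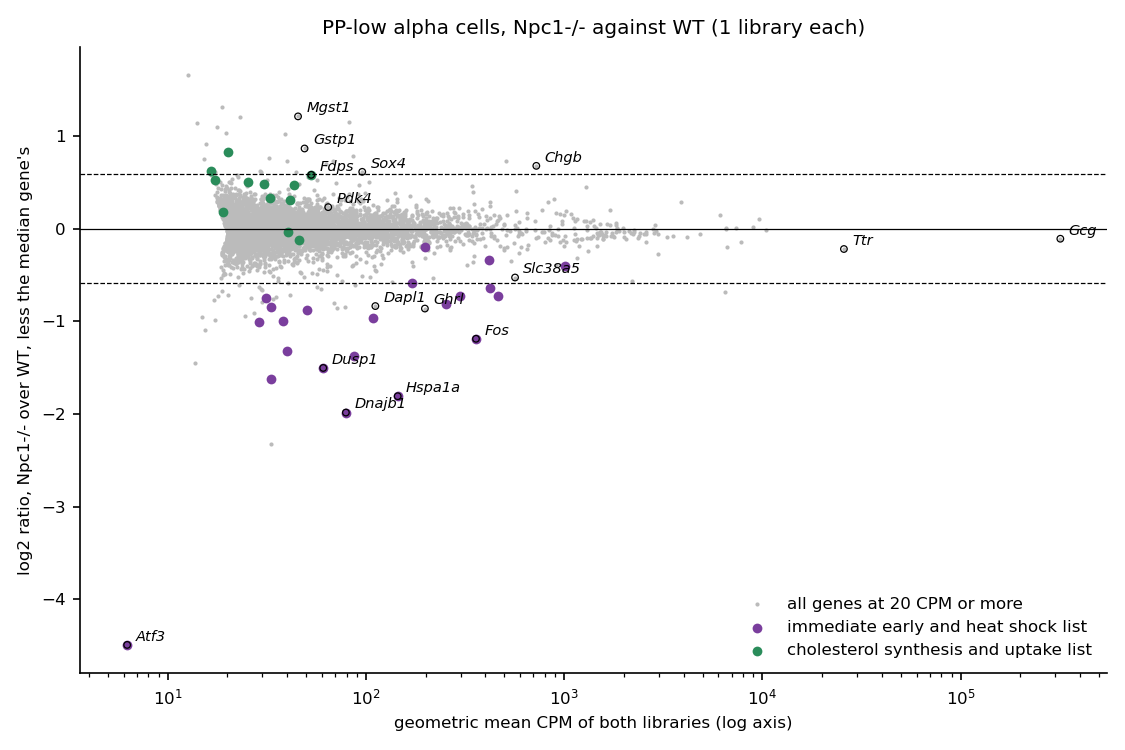
Log2 ratio of *Npc1*-/- over WT alpha cells, less that of the median gene, against the geometric mean level in CPM on a log axis, for the genes that reached 20 CPM in 1 or both libraries. Immediate early and heat shock genes (purple) all lie below 0 and most cholesterol genes (green) above it; dashed lines mark 1.5-fold.

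Among genes that reached 50 CPM in WT or in *Npc1*-/- cells, *Mgst1* had the highest ratio in *Npc1*-/- alpha cells. Every gene named in this paragraph reached 50 CPM in *Npc1*-/- cells only, so this limit itself favoured the higher side. This microsomal glutathione transferase (ENSMUSG00000008540) was at 29.3 CPM in WT cells and 70.5 CPM in *Npc1*-/- cells (1.21, interval 1.02 to 1.40), and at least 1 UMI was present in 27.9% and 47.7% of the cells. Its ratio was 1.37 in *Gcg*-led cells rich in *Ppy* and *Pyy*, 0.18 in insulin-led cells and 0.10 in endothelial cells. *Gstp1*, a cytosolic glutathione transferase, was at 35.6 and 67.5 CPM (0.86), with ratios of 0.82, 0.81 and 0.58 in the same 3 classes. *Cd9*, a tetraspanin, was at 48.5 and 81.6 CPM (0.69). *Gria3*, a subunit of AMPA glutamate receptors, was at 35.1 and 55.7 CPM (0.61), and the acyl-CoA binding protein *Dbi* (41.4 and 63.2 CPM, 0.55) and the splicing factor *Snrpg* (46.1 and 68.9 CPM, 0.52) lay under the limit. *Cd9* and *Gria3* passed only narrowly and came to 0.54 and 0.45 in the lowest alternative.

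*Sox4*, a transcription factor of endocrine development, was at 76.0 CPM in WT cells and 120.8 CPM in *Npc1*-/- alpha cells (0.61, interval 0.48 to 0.74), and the ratio came under the limit, to 0.53, when cells up to 5% *Ppy* plus *Pyy* were included. In *Gcg*-led cells rich in *Ppy* and *Pyy* its ratio was -0.32. *Tmsb15b2* (388 and 671 CPM) and *Dynlt1a* (30.6 and 52.7 CPM) were higher and *Gm47283* (72.6 and 15.03 CPM) lower, but each shares reads with near-identical copies and its level is uncertain.

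A few cells held most UMIs of some genes. *Chgb*, a granin of secretory granules, was at 561 CPM in WT cells and 933 CPM in *Npc1*-/- cells (0.68), but 6 *Npc1*-/- cells held 47.0% of its UMIs, and without the 1% of cells with most of it in each library the levels were 542 and 507 CPM (-0.15). *Apoe* (51.7 and 89.1 CPM) and the matrix protein *Sparc* (64.1 and 114 CPM) were concentrated too, with 81.4% and 81.7% of *Apoe* UMIs in 8 WT and 6 *Npc1*-/- cells, but without their top cells the direction stayed, at 9.72 and 16.6 CPM for *Apoe* and 13.04 and 38.6 CPM for *Sparc*. Of the markers of other cells, endothelial markers came to 51.2 and 119 CPM, of which *Plvap* was the most abundant, and stellate and fibroblast markers came to 110 and 160 CPM, led by *Sparc*. At least 10 UMIs of the endothelial markers were found in 7 and 9 cells. Acinar markers were at 67.9 and 86.0 CPM in sum, Schwann cell markers at 17.4 and 33.0 CPM, and macrophage markers at 60.8 and 62.1 CPM. Lower in *Npc1*-/- cells were B and T cell markers, at 13.7 and 4.06 CPM, and red cell markers, at 17.6 and 12.2 CPM. The sums for delta cell markers, led by *Rbp4*, were 1199 and 1170 CPM. Duct markers, led by the keratin *Krt8*, came to 464 and 410 CPM. Both sums were thus also smaller in the *Npc1*-/- library. Carriers of such markers were left out only for *Apoe*, *Sparc* and *Col4a1*, without which 16 genes were higher and 45 lower. With cells marked by the doublet score removed the counts were 15 and 50, and with only cells low in the other hormones 25 and 49.

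The groups of this paragraph stayed close to the median gene. Of 61 nuclear genes of oxidative phosphorylation 49 were above it and none passed 1.5-fold (median 0.08), and with a TMM factor 42 were above 0. *Cox6c* was at 315 and 394 CPM (0.26). The 12 mitochondrially encoded genes were split, with 7 above and 5 below (median 0.00). This split depended on the scaling: 11 were above 0 uncentred, 9 with hormone genes also out of the totals, and 4 with a TMM factor. Of 24 genes of protein folding in the endoplasmic reticulum, 18 were below and none passed 1.5-fold (median -0.12), among them the chaperone *Hspa5* (473 and 390 CPM, -0.34). Of 35 lysosomal genes 17 were above and 18 below (median -0.01), with the protease *Ctsb* at 138 and 120 CPM (-0.26) and the membrane protein *Cd63* at 348 and 393 CPM.

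Of 6 genes of the integrated stress response 5 were below the median gene (median -0.37), and 1 of these 5 reached 20 CPM in 1 library only. Past 1.5-fold were 2 of them, *Ppp1r15a* (43.6 and 26.7 CPM, -0.77) and *Cebpb* (33.4 and 20.6 CPM, -0.75), where 49 of all 5257 genes (0.932%) were lower. Amino acid transporters were divided, with 3 of 10 above and 7 below and none past 1.5-fold. *Slc7a2*, a carrier of arginine and lysine, was at 300.4 and 355.3 CPM (0.19), and *Slc3a2*, the heavy chain of several carriers, at 189 and 153 CPM (-0.37). *Slc38a5* did not reach 1.5-fold either with the 3% limit, but did so (-0.73) in cells under 1% *Ppy* plus *Pyy*.

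*Slc38a5* (ENSMUSG00000031170) encodes a sodium-coupled transporter of glutamine and other neutral amino acids, and in mice it is known as a transporter that alpha cells raise when amino acids accumulate. It was at 665.8 CPM in WT cells and 480.0 CPM in *Npc1*-/- alpha cells (-0.53, interval -0.58 to -0.47). In *Gcg*-led cells rich in *Ppy* and *Pyy* it was at 524.5 and 527.8 CPM, in cells led by *Ppy* plus *Pyy* at 62.2 and 63.6 CPM, in *Sst*-led cells at 20.3 and 23.3 CPM, in insulin-led cells at 14.5 and 9.18 CPM and in endothelial cells at 1.31 and 1.06 CPM. The gene was thus far higher in both *Gcg*-led classes than in these other 4.

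Its count per cell varied widely, with medians of 5 UMIs in WT and 4 UMIs in *Npc1*-/- cells and maxima of 136 and 164. Cells with at least 3 UMIs, called *Slc38a5* cells here, were 499 of the WT cells (71.1%, 67.6 to 74.4) and 328 of the *Npc1*-/- cells (64.7%, 60.4 to 68.9). No UMI was found in 56 (7.98%) and 58 (11.4%). With all cells cut down to 5000 random UMIs (26 WT and 14 *Npc1*-/- alpha cells were too shallow), at least 1 UMI of *Slc38a5* remained in 75.3% and 67.1% of alpha cells, against 3.27% and 4.43% of insulin-led cells, whose full depth had a median of 30264.5 and 30074 UMIs.

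**Figure D3:**
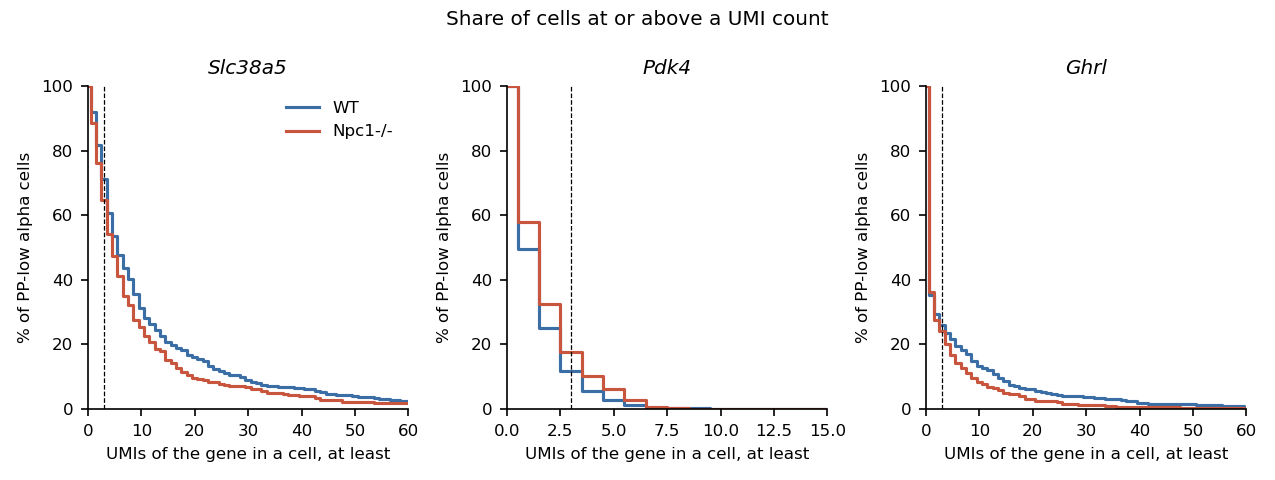
Share of alpha cells (percent) with at least a given number of UMIs of *Slc38a5*, *Pdk4* and *Ghrl*, in WT (blue) and *Npc1*-/- (red); the dashed line marks 3 UMIs, which 71.1% and 64.7% of cells reached for *Slc38a5* and 11.7% and 17.6% for *Pdk4*.

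*Slc38a5* cells were set against the cells with no *Slc38a5* UMI within each library, and a gene was counted only where it passed 1.5-fold in the same direction in both libraries. Cells of 1 library are not replicates, and the second library is the only repeat. Genes needed 20 CPM, and named genes 50 CPM, in either group of each library, so a gene could enter by its higher group alone. Of 5160 genes, 52 (1.01%) were higher and 40 (0.775%) lower. Uncentred ratios gave 29 and 80, since the median gene itself lay at -0.10 in WT and -0.11 in *Npc1*-/-. The named genes depended on the setting: of 10 higher and 9 lower past 1.5-fold, only *Dapl1*, *Apoe*, *Vgf*, *Rcn3* and *Sox4* passed under every alternative (not centred, not centred and without hormone genes in the totals, split at 1 or 5 UMIs, thinned). *Slc38a5* cells were also deeper, with medians of 16996 and 18714.5 UMIs against 14244 and 14089.5, and held more *Gcg*, 32.0% and 31.7% of UMIs against 29.4% and 28.3%. Thinned cells of 1 depth, split at 1 UMI, gave 30 genes higher and 29 lower.

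*Dapl1*, a small protein of the death-associated protein family, had the largest ratio of the named genes. It was at 180 CPM in WT *Slc38a5* cells against 20.2 CPM in cells without (log2 ratio 3.21), and at 98.9 against 10.3 CPM in *Npc1*-/- (3.29). The smaller of the ratios of the 2 libraries ran from 1.37 to 3.45 over the alternatives. At least 1 UMI of *Dapl1* was found in 56.5% of WT *Slc38a5* cells and 8.93% of those without, and in 42.4% and 12.1% in *Npc1*-/-. The CPM of *Dapl1* was lower in the *Npc1*-/- library on both sides of the split. The side without *Slc38a5* held only 56 and 58 cells, with 743654 and 780473 UMIs of all genes, and so few of *Dapl1*. The percentages of these cells that held *Dapl1* went the other way, so no direction is read there. The 2 ratios accordingly had wide intervals, 2.53 to 4.10 in WT and 2.39 to 4.60 in *Npc1*-/-. Over all alpha cells the levels of *Dapl1* were 146 and 85.1 CPM (-0.84, interval -0.96 to -0.71).

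The neuropeptide precursor *Vgf* was at 138 against 60.5 CPM in WT and 105 against 46.1 CPM in *Npc1*-/- (1.28 in both). *Gc* was at 148 against 68.6 CPM and 127 against 33.3 CPM (1.20 and 2.01). *Ttr* was at 29076 against 20858 CPM in WT (0.58, under 1.5-fold) and 27149 against 15218 CPM in *Npc1*-/- (0.94). *Tmod2*, which caps actin filaments (172 against 79.3 CPM and 161 against 75.6 CPM), *Rcn3*, a calcium-binding protein of the endoplasmic reticulum (65.1 against 26.9 and 53.1 against 25.6), and the kinetochore gene *Spc25* (188 against 104 and 177 against 76.9) were higher as well. Over the alternatives the smaller ratio went down to 0.39 for *Gc*, 0.51 for *Tmod2* and 0.20 for *Spc25*, under the limit.

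The glycolytic enzyme phosphoglycerate kinase, *Pgk1* (0.89 in both libraries), ornithine aminotransferase *Oat* (1.07 and 0.89) and the elongation factor *Eef1a2* (0.97 and 1.35) passed too, but with smaller ratios of 0.18, 0.19 and 0.37 in the lowest alternative. *Apoe* was also past the limit (2.32 and 2.26) but rested on few cells: without the 1% with most of it the levels were 10.4 against 8.25 CPM in WT and 15.1 against 23.4 CPM in *Npc1*-/-, which turned the direction in *Npc1*-/-.

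Genes lower in *Slc38a5* cells included *Mgst1*, at 22.3 against 69.9 CPM in WT and 57.3 against 114 CPM in *Npc1*-/- (-1.55 and -0.89). *Sox4* was at 60.2 against 129 and 96.6 against 191 CPM (-1.003 and -0.88), the tetraspanin *Tspan8* at 34.6 against 68.6 and 44.5 against 85.8 CPM (-0.90 and -0.85), and the membrane-bound protein *Basp1* at 77.3 against 140 and 105 against 177 CPM (-0.76 and -0.64). Within either side of the split, *Mgst1*, *Sox4* and *Basp1* were higher in the *Npc1*-/- library. The cholesterol exporter *Abca1* (-0.79 and -0.67), endothelin 3 (*Edn3*, -0.65 and -0.77), *Ociad2* (-0.71 and -0.71), *Fbxo21* (-0.81 and -0.62) and the lysophospholipase *Enpp2* (-0.82 and -0.59) were lower as well, and *Aard* (-0.58 and -0.94) was just under the limit in WT. *Tspan8*, *Abca1*, *Fbxo21* and *Enpp2* reached the 50 CPM needed for naming only in cells without *Slc38a5*, so that filter favoured the lower side. In at least 1 alternative the smaller ratio of *Mgst1* was -0.46, of *Tspan8* -0.33, of *Basp1* -0.45, of *Edn3* -0.19, of *Ociad2* -0.13, of *Fbxo21* -0.16 and of *Enpp2* -0.30, all under the limit, and *Abca1* had no common direction.

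Of the listed groups, 54 of 61 oxidative phosphorylation genes were above the median gene in *Slc38a5* cells of both libraries (medians 0.22 and 0.25). Of all 5160 genes, 1726 were above and 1435 below in both libraries (medians 0.02 and 0.02). Likewise 20 of 24 endoplasmic reticulum folding genes were above it in both (0.36 and 0.26), for example the translocon subunit *Ssr4* at 1110 against 905 CPM in WT and 1035 against 730 CPM in *Npc1*-/-. Beside these, the median mitochondrial share was 4.07% in *Slc38a5* cells against 4.69% in WT and 4.17% against 4.87% in *Npc1*-/-, 8 of 12 mitochondrially encoded genes were below and 1 above in both libraries, and of 20 immediate early and heat shock genes 11 were below and 3 above. Their part in the result was not tested. Across single cells thinned to the same depth (676 WT and 493 *Npc1*-/- cells, each from 1 library), the genes whose rank followed *Slc38a5* most were *Cryba2* (Spearman's rho 0.30 and 0.26), *Dapl1* (0.34 and 0.24), *Spp1* (0.25 and 0.23), *Ssr4* (0.23 and 0.20) and *Ostc* (0.23 and 0.19). The most opposite were *Pcsk1n*, an inhibitor of a prohormone convertase (-0.33 and -0.28), *Resp18* (-0.29 and -0.27) and *Scg5* (-0.25 and -0.20). These correlations are weak and describe sparse counts.

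*Pdk4* (ENSMUSG00000019577) encodes a kinase that inactivates pyruvate dehydrogenase and so spares glucose carbon when fatty acids are burned. It was at 58.4 CPM in WT cells and 71.3 CPM in *Npc1*-/- alpha cells (0.23, interval 0.07 to 0.39), and at 40.0 and 53.1 CPM in *Gcg*-led cells rich in *Ppy* and *Pyy*. Insulin-led cells held 0.796 and 0.564 CPM, and endothelial cells 0.876 and 1.06 CPM. *Pdk4* was thus far higher in the *Gcg*-led classes than in insulin-led and endothelial cells.

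No *Pdk4* UMI was found in 355 WT (50.6%) and 214 *Npc1*-/- alpha cells (42.2%), and the highest counts were 11 and 8. *Pdk4* cells, with at least 3 UMIs, were 82 of the WT cells (11.7%, 9.40 to 14.3) and 89 of the *Npc1*-/- cells (17.6%, 14.3 to 21.2). At 5000 UMIs per cell, 24.0% (20.8 to 27.4) and 28.4% (24.5 to 32.6) of alpha cells kept at least 1 UMI, against 0.292% and 0.233% of insulin-led cells, and the intervals of the genotypes overlapped. Of the *Pdk4* cells, 49 in WT (59.8%) and 51 in *Npc1*-/- (57.3%) were also *Slc38a5* cells, which is 9.82% and 15.5% of *Slc38a5* cells.

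Set against cells with no *Pdk4* UMI, 20 of 5168 genes (0.387%) were higher and 25 (0.484%) lower in *Pdk4* cells of both libraries. Here too a gene could enter by its higher group alone. Uncentred ratios gave 39 and 17. *Pdk4* cells had medians of 17451.5 and 19182 UMIs against 16013 and 16866. Their median mitochondrial share was 4.52% and 4.65% against 4.06% and 4.15%, and their *Gcg* share 30.3% and 28.8% against 31.5% and 31.4%, and the part of these in the ratios was not tested. The counts of genes moved with the UMI limit, to 2 higher and 8 lower when any UMI made a *Pdk4* cell, and to 76 and 96 at 5 UMIs, where few cells remain.

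Several genes lower in *Slc38a5* cells were higher in *Pdk4* cells. *Mgst1* was at 57.8 against 24.5 CPM in WT and 104 against 49.9 CPM in *Npc1*-/- (1.14 and 0.97), *Basp1* at 135 against 68.0 and 173 against 90.03 CPM (0.89 and 0.86), *Tspan8* at 92.9 against 29.4 and 81.7 against 47.7 CPM (1.56 and 0.69) and *Sox4* at 113 against 63.7 and 162 against 101 CPM (0.74 and 0.60). The retrotransposon-derived, paternally expressed gene *Peg10* was at 150 against 37.3 and 116 against 60.8 CPM (1.91 and 0.85). *Cadps*, which primes secretory vesicles (0.63 and 0.67), was higher, whereas *Edn3* (0.58 and 0.66), the aromatic amino acid decarboxylase *Ddc* (1.02 and 0.57) and the gluconeogenic enzyme *Fbp1* (0.77 and 0.54) lay under the limit in 1 library. None of the 6 named genes past 1.5-fold on this side passed under every alternative, with smaller ratios down to 0.02 for *Mgst1*, 0.03 for *Peg10* and 0.27 for *Basp1*. The 2 contrasts use overlapping cells, so their values are set side by side only.

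In the other direction, *Dapl1* was at 84.6 against 172 CPM in WT and 27.4 against 118 CPM in *Npc1*-/- *Pdk4* cells (-1.12 and -2.18), and *Spc25* was at 112 against 196 and 103 against 182 CPM (-0.90 and -0.91). *Iapp*, the precursor of amylin, was at 2132 against 3007 and 1820 against 2845 CPM (-0.60 and -0.73). *Rcn3* (-0.86 and -0.98) was lower too. In at least 1 alternative each of these came under the limit, *Dapl1* at -0.50, *Spc25* at -0.38, *Iapp* at -0.35 and *Rcn3* at -0.30. *Slc38a5* was at 605 against 743 CPM in WT (-0.39) and 299 against 491 CPM in *Npc1*-/- (-0.81). *Sst* (-1.74 and -1.85) and *Sparc* (-3.83 and -1.20) rested on few cells. Without the 1% with most of each gene, *Sst* was at 117 against 139 CPM in WT and 117 against 149 CPM in *Npc1*-/-, and *Sparc* at 6.96 against 34.7 CPM and 45.6 against 71.4 CPM. *Sparc* was the only gene named on this side to pass under every alternative of the split and scaling, with a UMI in 11.0% and 15.7% of *Pdk4* cells and 7.04% and 10.7% of the others.

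Of the groups, 52 of 61 nuclear genes of oxidative phosphorylation lay below the median gene in *Pdk4* cells of both libraries (medians -0.12 and -0.15) and all 12 mitochondrially encoded genes above it (0.07 and 0.06), where 1456 of all 5168 genes were above and 1598 below in both. Both shifts are smaller than 1.5-fold. Of 7 genes of fatty acid oxidation and PPAR targets, 1 was above and 3 below in both libraries. Of 21 immediate early and heat shock genes 13 were above in both, and *Fos* was at 684 against 466 CPM in WT and 329 against 211 CPM in *Npc1*-/- (0.46 and 0.55).

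**Figure D4:**
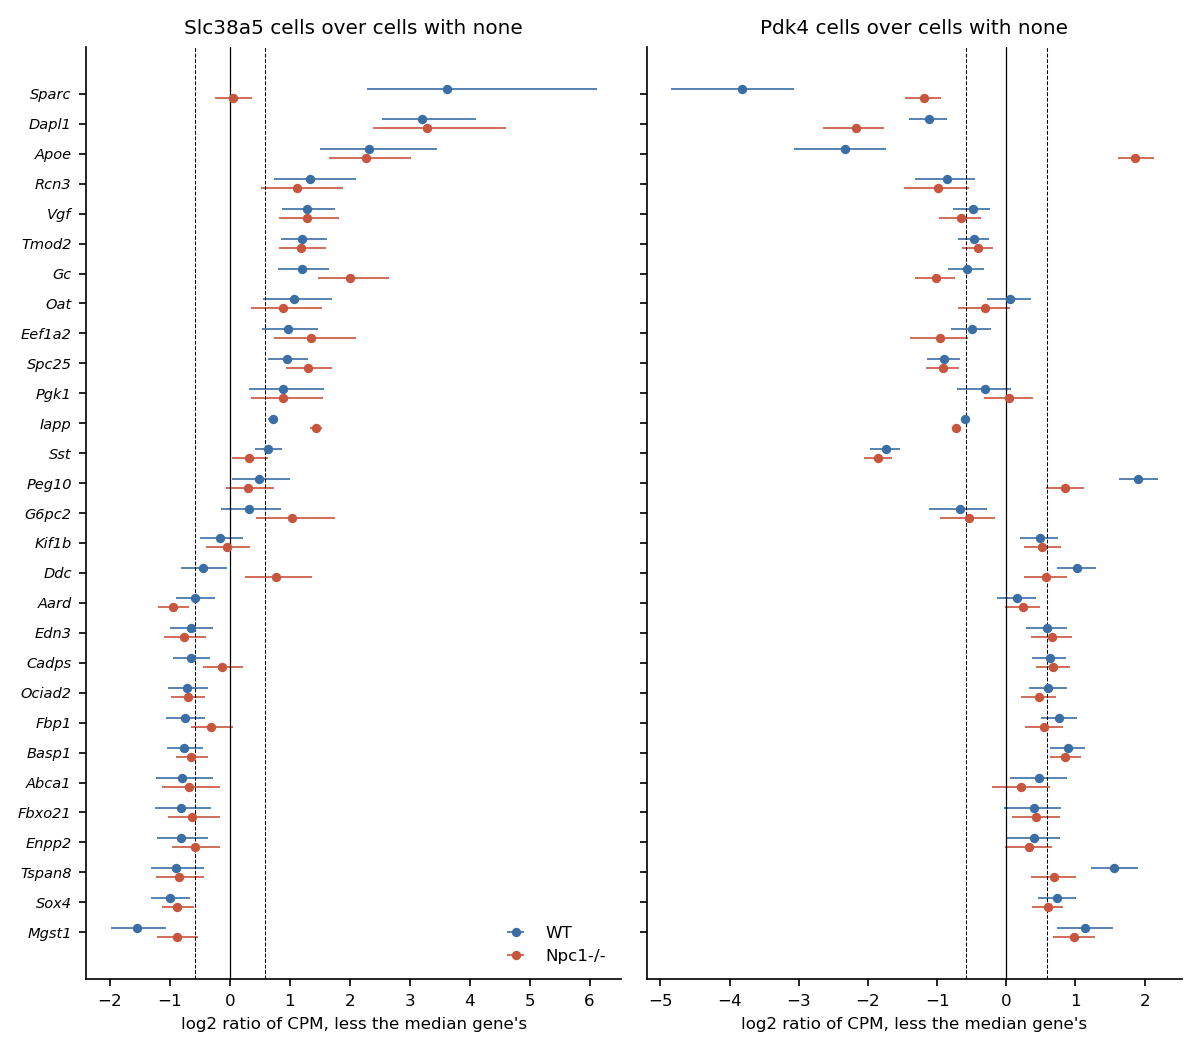
Log2 ratios of 29 named genes in *Slc38a5* cells (one panel) and *Pdk4* cells (the other panel) over cells without a UMI of that gene, less the median gene, in WT (blue) and *Npc1*-/- (red) alpha cells. Bars are 95% counting intervals and dashed lines 1.5-fold; *Dapl1* lies at 3.21 and 3.29 for *Slc38a5* and at -1.12 and -2.18 for *Pdk4*.

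Compared with *Gcg*-led cells at 3% *Ppy* plus *Pyy* or more (250 WT and 269 *Npc1*-/- cells), 23 of 5025 genes (0.458%) were higher in the rich cells of both libraries and 7 (0.139%) lower. Because *Ppy* and *Pyy* drew the line, these values only describe the neighbouring class. *Tspan8* was at 188 CPM in rich against 44.6 CPM in poor WT cells and 158 against 56.8 CPM in *Npc1*-/- (2.08 and 1.55), *Iapp* at 6987 against 2661 and 7084 against 2498 CPM (1.41 and 1.58), and *Fam159b* at 75.1 against 3.77 and 58.7 against 6.58 CPM (4.32 and 3.22). Markers of somatostatin-making delta cells moved with these: 3 of 4 passed 1.5-fold (medians 4.06 and 3.15), *Sst* was at 8842 against 281 CPM and 5728 against 254 CPM, and *Fam159b* had a UMI in 14.8% and 17.1% of rich cells. Without the 27 WT and 20 *Npc1*-/- rich cells that the doublet score marked, and the marked poor cells, 12 genes were higher in place of 23, and the ratios were -0.19 and 3.17 for *Sst*, 0.64 and 1.85 for *Fam159b*, 1.85 and 1.27 for *Tspan8* and 0.99 and 1.36 for *Iapp*. *Sst* thus turned direction in WT, while the other 3 stayed past 1.5-fold in both libraries.

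Genes higher in the alpha cells low in *Ppy* and *Pyy* were *Fbp1*, at 78.1 CPM against 46.2 CPM in rich WT cells and 80.5 against 40.5 CPM in *Npc1*-/-, and *Mgst1*, at 29.3 against 13.4 CPM and 70.5 against 34.7 CPM. Both stayed past 1.5-fold under every alternative, whereas *Ddc* (ratios of rich over poor cells of -0.60 and -1.08) came to -0.49 in 1 of them. *Slc7a2* was at 300 against 201 CPM and 355 against 241 CPM, just under the limit, and *Irx1* was at 168 against 121.6 CPM and 157.7 against 137 CPM. *Ttr* was at 27273 against 16157 CPM and 24335 against 16868 CPM. Of 42 ribosomal protein genes 36 were below the median gene in rich cells of both libraries, and of 24 endoplasmic reticulum folding genes 20 were above (medians 0.16 and 0.16), where 1475 of all 5025 genes were above and 1479 below in both.

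Within the chosen cells the levels followed the share of *Ppy* plus *Pyy* in part. From cells under 0.5% to cells at 2% to 3%, *Iapp* went from 1702 to 4317 CPM in WT and from 1946 to 3466 CPM in *Npc1*-/-, and *Tspan8* from 28.3 to 64.0 and from 44.1 to 97.6 CPM. *Ttr* went the other way, from 32197 to 23356 CPM and from 28423 to 21394 CPM. *Slc38a5* showed no common order, with 716, 626, 610 and 714 CPM in WT and 431, 424, 486 and 608 CPM in *Npc1*-/- over the 4 bins below 3%. Thus the WT library was above the *Npc1*-/- library in *Slc38a5* in each of these 4 bins.

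**Figure D5:**
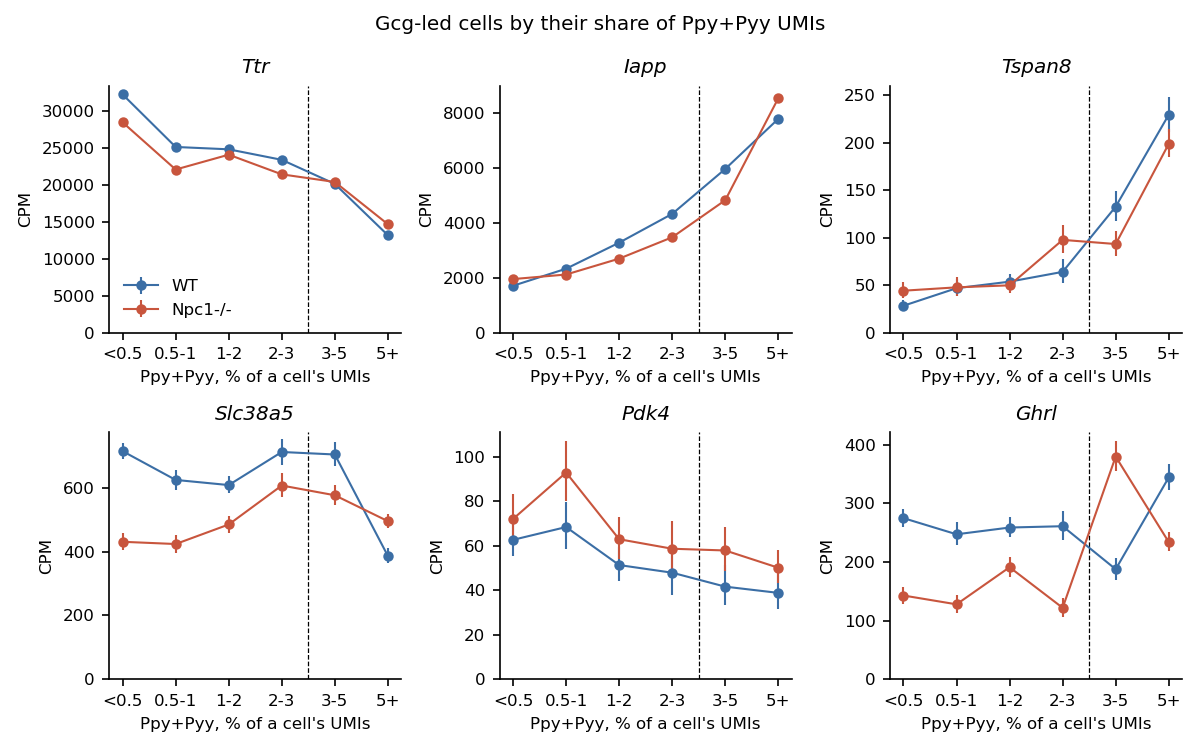
Levels in CPM of *Ttr*, *Iapp*, *Tspan8*, *Slc38a5*, *Pdk4* and *Ghrl* in *Gcg*-led cells binned by the percent of UMIs from *Ppy* plus *Pyy*, in WT (blue) and *Npc1*-/- (red). The dashed line marks 3%, below which *Iapp* reached 4317 and 3466 CPM and above which it reached 7773 and 8524 CPM.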

How the data were processed

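The deposited matrices held counts of UMIs per gene and barcode, which the authors made with Cell Ranger 3.1.0 on mm10, per the submitters' processing notes, which also name Seurat 4.0.3. Here barcodes with more than 1000 genes, fewer than 50000 UMIs, less than 10% mitochondrial and at most 0.1% haemoglobin UMIs were kept (the limits of the study's methods). The study's filter also lists double cells, which were not removed here. Classes were set by their largest hormone at 10% of UMIs or more. Endothelial cells had no hormone at 10% and at least 5 UMIs of *Pecam1*, *Cdh5*, *Kdr*, *Plvap*, *Flt1* and *Esm1*. UMIs of the cells of a class were summed per library and scaled to CPM. Ratios had 0.5 counts added on each side, were centred on the median gene and used genes with at least 20 CPM. No test was possible with 1 library per genotype, so 1.5-fold stands for a call. Intervals are Poisson for levels, Clopper-Pearson for shares and conditional binomial for ratios.

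Named genes had at least 50 CPM, which for the genotypes 1 library was enough to reach. For the comparisons of cells within a library, either group was enough in each library. The named genes were the 12 with the largest ratio on each side between genotypes, and the 10 on each side in both libraries for *Slc38a5* and *Pdk4* cells, plus genes of the gene lists. A few outside the rule (*Atf3*, *Zfp36*, *Eef1a2*, *Apoe*, *Sparc*) were named after their values were seen. The cells, gene lists and rules were chosen with earlier results of these data known. Doublets were scored with Scrublet in scanpy 1.11.5, at 0.8% per 1000 barcodes, and kept in the main values. TMM factors came from edgeR 4.0.16. On simulated counts with 200 changed genes, 199 were recovered for the genotype ratio among 5201 genes, 180 for the *Slc38a5* contrast among 5105 genes and 192 for the *Pdk4* contrast among 5081 genes, with 0, 12 and 1 unchanged genes called. The changes set there were all larger than 1.5-fold, and the counts were Poisson sums without cell to cell variation. The simulation therefore does not check calls near the limit or genes held by few cells. Promoters (250 bases before to 50 after the start) came from RefSeq on GRCm38.p6. Some genes that the rule names are not reported here.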

Additional observations from a re-analysis of the deposited data

How the results depend on the processing

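No paired analysis was possible because each genotype has 1 library and the labels give no replicate numbers. Depth limits the calls of single cells, since a *Pdk4* cell rests on 3 UMIs and no cell had more than 11. The cause of the changes below was not tested, beyond the fewer cells or genes that some settings leave.

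With *Ppy* plus *Pyy* under 1%, 415 WT and 261 *Npc1*-/- cells were left. As a share of kept WT cells the cells chosen were 14.0% with the looser cell filter, 8.97% with *Ppy* plus *Pyy* under 1%, 17.6% under 5%, 14.1% with *Gcg* at 20% or more and 16.7% with cycling cells kept. In *Npc1*-/- the shares were 10.6% with the looser filter, 12.9% with the stricter filter, 6.11% under 1%, 14.4% under 5% and 13.4% with cycling cells. The ratio of the shares was 0.682 under 1%.

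Of genes between genotypes (26 higher and 49 lower), 50 were higher with *Ppy* plus *Pyy* under 1%, 15 with doublet scores removed, 16 with carriers of *Apoe*, *Sparc* or *Col4a1* left out (chosen after seeing the data) and 61 with uncentred ratios and hormone genes out of the totals (33 for uncentred ratios alone). Thinned cells gave 84 and 98, a minimum of 10 CPM 70 and 90, a minimum of 100 CPM 5 and 15, and a 2-fold limit 9 and 13. *Chgb* turned to -0.15 without the 1% of cells with most of it, also chosen after seeing the data. Counting each gene once per setting, 645 ratios stayed within the gene's interval and 110 moved, and counting each list once per setting, 399 medians stayed and 27 moved. A filter on mean CPM, also chosen after seeing the data, gave 19 and 40.

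*Slc38a5* cells were 92.0% of WT cells at 1 UMI, 53.4% at 5, 75.3% after thinning to 5000 and 57.4% after thinning to 2500 UMIs, and 88.6%, 47.3% and 48.9% of *Npc1*-/- cells at 1 UMI, at 5 and after thinning to 2500, or 59.4% with *Ppy* plus *Pyy* under 1%. *Pdk4* cells were 49.4% at 1 UMI, 2.85% at 5 and 24.0% thinned in WT, and 57.8%, 6.11% and 28.4% in *Npc1*-/-, or 21.8% with *Ppy* plus *Pyy* under 1%. For *Slc38a5* cells, 29 genes were higher and 80 lower uncentred, 30 higher in thinned cells (centred) and 92 lower without hormone genes in the totals (also uncentred). For *Pdk4* cells, 39 were higher uncentred, 40 higher and 41 lower without hormone genes, 2 and 8 at 1 UMI, and 76 and 96 at 5. For cells rich in *Ppy* and *Pyy* against the rest (23 and 7), the counts were 42 and 13 without hormone genes, 42 and 31 for 5% or more against under 1%, and 12 higher with doublet scores removed.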

Other observations

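*Ghrl*, the gene of ghrelin, which young islets make in epsilon cells, was unevenly spread over the alpha cells. No UMI was found in 455 WT cells (64.8%) and 324 *Npc1*-/- cells (63.9%), at least 3 in 182 (25.9%) and 123 (24.3%), and at least 10 in 93 (13.2%) and 43 (8.48%), with maxima of 179 and 59. Thinned to 5000 UMIs, 28.4% and 26.4% of alpha cells had a UMI, against 1.40% and 1.46% of insulin-led cells, and endothelial cells held 1.75 and 3.89 CPM. Its level was 262 CPM in WT and 150 CPM in *Npc1*-/- cells (log2 ratio -0.86, interval -0.96 to -0.77, but -0.40 and under 1.5-fold where cells up to 5% *Ppy* plus *Pyy* were included), while in *Gcg*-led cells rich in *Ppy* and *Pyy* it was 277 and 291 CPM. Cells with 10 or more UMIs were thus a smaller share in *Npc1*-/-, whereas the shares at 3 UMIs differed by less than counting error. Of the cells with 3 or more *Ghrl* UMIs, 137 in WT (75.3%) and 94 in *Npc1*-/- (76.4%) were *Slc38a5* cells. Cells led by *Ppy* plus *Pyy* held more *Ghrl* than these alpha cells in both libraries, 440 and 180 CPM, with a log2 ratio of -1.355. Neither the high level nor the lower value in *Npc1*-/- was therefore particular to alpha cells low in *Ppy* and *Pyy*.

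Cell to cell variation, as the ratio of variance to mean of UMIs in cells thinned to 5000, had a median of 1.03 in WT and 1.02 in *Npc1*-/- over 4759 genes. Apart from *Gcg* and *Ttr* (51.0 and 59.0), it was high for *Pyy* (31.0 and 29.0), *Apoe* (27.8 and 34.5), *Sst* (77.5 and 22.9), *Iapp* (22.3 and 21.5), *Sparc* (20.1 and 17.0) and *Ppy* (15.5 and 22.8). Among others, it was also high for *Ghrl* (10.5 and 5.02), *Gnas* (7.87 and 6.58), *Slc38a5* (7.10 and 6.30), *Pcsk1n* (5.62 and 5.38) and the granin *Chga* (5.12 and 6.16). Of 5 neonatal and imprinted genes 1 was above and 4 below the median gene, but 2 reached 20 CPM in 1 library only, and with a filter on mean CPM 3 remained, all below and none past 1.5-fold. *Mest*, which that filter leaves out, was at 20.3 CPM in WT cells and 10.9 CPM in *Npc1*-/- cells (-0.96) and *Meg3* at 1275 and 1066 CPM (-0.31). Of 11 genes of the FoxO and fasting response 6 were above and 5 below the median gene (median 0.06), and 2 of those above reached 20 CPM in 1 library only. The cell cycle inhibitor *Cdkn1a* (89.0 and 53.0 CPM, -0.80) and the insulin receptor substrate *Irs2* (36.4 and 24.0 CPM, -0.65) were past 1.5-fold, where 49 of all 5257 genes (0.932%) were lower. The glucocorticoid target *Fkbp5* was at 38.2 and 55.6 CPM (0.48).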
